A study of Mus musculus with 13 samples.

Results

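Retinal progenitors change with age in the kinds of neurons and glia they make, and a small set of transcription factors is known for marking or driving these temporal states. The expression of 8 of them was followed here: the Ikaros family genes Ikzf1, Ikzf2, Ikzf4 and Ikzf5, the zinc finger gene Casz1, the POU genes Pou2f1 and Pou2f2, and the forkhead gene Foxn4. They form a list of names, matched on gene symbol, and are 8 of the 35734 genes in the deposited comparison. All 8 passed the filter on low counts, which left 15656 genes in the test.

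RNA-seq was made from 8 libraries of CD1 mouse retina at postnatal day 0 (P0), the age of late progenitors. Retinas were dissociated with Accutase and the cells were transfected, plated on coated wells and kept for 9 h before GFP-positive cells were sorted. The 4 control libraries came from the cells of the GFP control condition, with 400000 cells each, and the 4 Ikzf1 libraries from cells made to express Ikzf1 beside GFP, with 300000 cells each. The labels call the libraries of a group biological replicates and do not say how many animals went into each, nor which promoter drove Ikzf1 in the RNA-seq cells. No genotype other than the strain is given, so the groups share the strain, the transfection, the culture and the sort. The cells were sorted on GFP and not on a progenitor marker, and all 15 progenitor markers checked, among them Pax6, Sox2 and Mki67, were measured in every group.

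In the fly nervous system, neural progenitors pass through an ordered series of transcription factors that includes hunchback, the pdm genes and castor. Ikzf1 and its relatives are vertebrate counterparts of hunchback, Pou2f1 and Pou2f2 of the pdm genes, and Casz1 of castor. In mouse retina, Ikzf1 is known as a factor of early progenitors, Ikzf4 for cone and Müller glia production, Pou2f1 and Pou2f2 for cone production, Foxn4 for amacrine and horizontal cells, and Casz1 for the later-born neurons.

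The libraries held 21.4 to 30.5 M estimated reads. Among 15656 tested genes, 59.4% were called at an edgeR adjusted p of 0.05 (the threshold used throughout), 29.5% higher and 29.9% lower in the Ikzf1 libraries, so a call on a single gene is common in this comparison. In 53.1% of the tested genes the 4 libraries of one group all lay on the same side of the other group, and in 26.7% the Ikzf1 libraries were all the lower. Over all tested genes the median difference was 0.00 on the log2 scale. When libraries were scaled by their total counts instead of by TMM, that median moved to −0.21 and the calls split into 2376 higher and 7772 lower, against 4614 and 4688. Reads of the misexpressed gene itself filled 15.9 to 17.2% of each Ikzf1 library.

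Casz1, Ikzf2, Foxn4 and Ikzf4 were each lower with Ikzf1, at 54.9%, 56.9%, 56.2% and 64.8% of the control level. Pou2f2 was lower to a smaller degree, at 80.4%, and that call rested on single libraries. Ikzf5 and Pou2f1 differed by 0.10 and −0.10 on the log2 scale and did not pass the test. Including Ikzf1 itself, 6 of the 8 genes were called and 5 were lower, and the same 6 had groups that did not overlap. Against backgrounds of 59.4% called and 53.1% with separate groups, 6 of 8 is not a result about the list as a whole. The shares beside the 5 lower genes are 29.9% called lower and 26.7% separate and lower, and the list was not tested as a set. The median log2 fold change of the 7 genes other than Ikzf1 was −0.63. In bulk RNA, fewer cells that express a gene and less of its RNA per cell cannot be told apart.

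**Figure D1:**
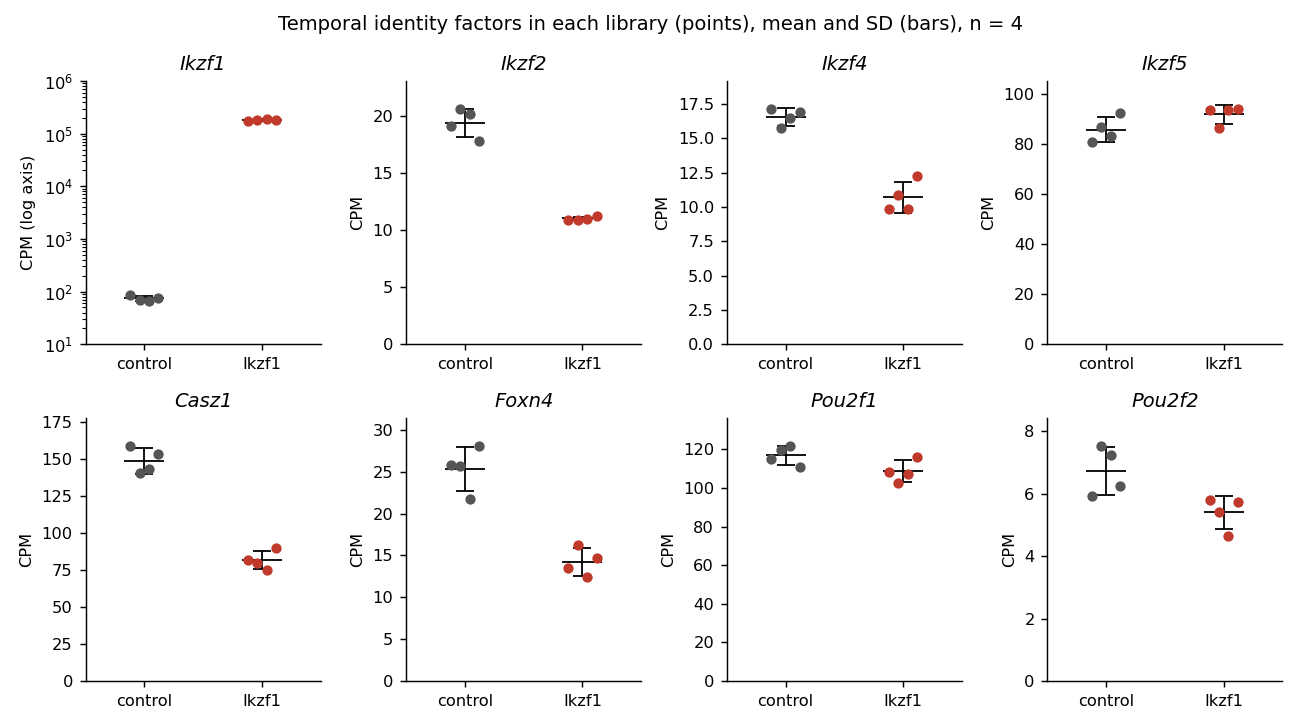
Level of each factor in CPM (TMM-scaled) in the 4 control and 4 Ikzf1 libraries. Points are libraries, the long bar is the mean and the whiskers are the SD; the Ikzf1 panel has a log axis and the others start at 0. The 2 groups lie apart for Ikzf1, Ikzf2, Ikzf4, Casz1, Foxn4 and Pou2f2 and overlap for Ikzf5 and Pou2f1.

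The Ikaros family was examined first, starting with the misexpressed gene as a check of the labels. Ikzf1 (ENSMUSG00000018654, GRCm38 chromosome 11, 11685003 to 11772926, plus strand) encodes Ikaros, the founding member of the family and best known from lymphocyte development. Levels are given as CPM, the reads of a gene as a share of its library after scaling with TMM, which sets libraries level on the bulk of their genes. Ikzf1 stood at 84.4, 70.4, 66.7 and 75.7 CPM in control replicates 1 to 4 and at 170539, 182847, 187110 and 184020 CPM in Ikzf1 replicates 1 to 4. Every Ikzf1 library was far above every control, as the labels state. On the log2 scale the difference was 11.25 (standard error 0.09, edgeR adjusted p 1.0e-30).

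The controls held 1617 to 2190 reads of Ikzf1, and their mean CPM was 0.0410% of that in the Ikzf1 libraries. The same transcripts of Ikzf1 held most of the reads in both groups, in shares that differed by a few percent of the reads. A transcript of 1542 nt held 53.1% ± 0.384 of the control reads and 50.1% ± 0.605 of those of the Ikzf1 libraries (SD, n = 4 a group), with ranges of 52.6 to 53.5% and 49.6 to 50.9% that lay apart. A transcript of 5163 nt took 44.0% ± 0.959 and 46.8% ± 0.414, with ranges of 43.2 to 44.9% and 46.2 to 47.1% that did not overlap. A transcript of 446 nt took 2.18% ± 0.723 and 2.37% ± 0.269. As shares corrected for transcript length, the 1542-nt transcript held 61.9% ± 2.80 and 59.3% ± 1.25. The 5163-nt one held 14.2% ± 0.874 and 15.3% ± 0.193, and by this measure the groups overlapped for both. Neither was called in the test of usage, of a transcript against the rest of its gene (diffSpliceDGE, unadjusted p 0.448 and 0.415). How far the control reads came from the cells' own Ikzf1 and how far from reads of the pooled Ikzf1 libraries was not tested, so the control level of Ikzf1 and its fold change are uncertain to that extent. Reads from the construct and from the chromosomal gene cannot be told apart here either.

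**Figure D2:**
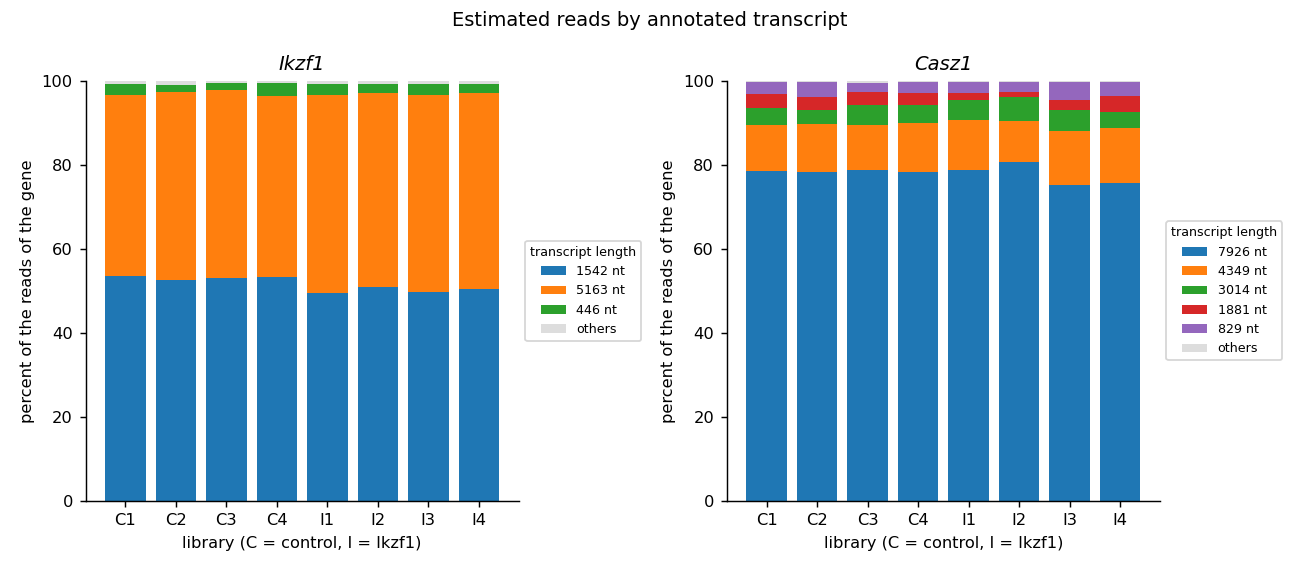
Percent of the estimated reads of Ikzf1 and Casz1 on each annotated transcript, by library (C for control, I for Ikzf1), with transcripts under 2% of the control reads grouped as others. The 1542-nt transcript of Ikzf1 is lower and the 5163-nt one higher in every Ikzf1 library than in every control (50.1% against 53.1% and 46.8% against 44.0% on average), and the 7926-nt transcript leads Casz1 in all 8 libraries. Neither Ikzf1 transcript was called in the test of usage, and their shares corrected for transcript length overlapped between the groups.

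Ikzf2 (ENSMUSG00000025997, chromosome 1, 69531214 to 69687245, minus strand) encodes Helios, a close relative of Ikaros with the same type of DNA-binding zinc fingers. It stood at 19.1, 20.5, 20.1 and 17.8 CPM in control replicates 1 to 4 and at 10.9, 10.9, 11.0 and 11.2 CPM in Ikzf1 replicates 1 to 4. The groups did not overlap, and the Ikzf1 libraries were closer to each other than the controls were. The gene fell by 0.81 on the log2 scale (standard error 0.08, edgeR adjusted p 2.9e-09). It had 249 to 555 reads per library.

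Ikzf4 (ENSMUSG00000002578, chromosome 10, 128630843 to 128669358, minus strand) encodes Eos, another Ikaros relative. Its level was 17.1, 15.7, 16.5 and 16.9 CPM in the controls and 9.85, 10.9, 9.83 and 12.2 CPM in the Ikzf1 libraries. Replicate 4 was the highest Ikzf1 library and was still below every control. Ikzf4 fell by 0.63 on the log2 scale (standard error 0.09, edgeR adjusted p 9.6e-07).

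Ikzf5 (ENSMUSG00000040167, chromosome 7, 131388652 to 131410521, minus strand) encodes Pegasus, the family member with the most divergent DNA-binding domain. It stood at 80.6, 86.6, 83.3 and 92.3 CPM in the controls and at 93.3, 86.2, 93.7 and 93.8 CPM in the Ikzf1 libraries. The ranges overlapped, since control replicate 4 and Ikzf1 replicate 2 crossed. On the log2 scale the difference was 0.10 (standard error 0.05, edgeR adjusted p 0.0904). Without control replicate 4 it was 0.14 and passed, without Ikzf1 replicate 2 it was 0.13 and passed, and with total-count scaling it turned to −0.11 and passed in the other direction. Ikzf5 overlaps Fgfr2 on the same strand and Pstk on the opposite strand, and strand use in the counting is not given in the sources used here. The remaining family member of this kind, Ikzf3, which encodes Aiolos, had a mean of 1.17 normalised counts in the authors' deposited table and was not tested.

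Casz1 (ENSMUSG00000028977, chromosome 4, 148804429 to 148954889, plus strand) encodes a zinc finger factor that works with Polycomb proteins in photoreceptors. It had the lowest fold change of the list, within 1 standard error of Ikzf2 and Foxn4. The controls read 158.8, 140.2, 143.1 and 153.2 CPM and the Ikzf1 libraries 81.9, 79.96, 74.7 and 89.9 CPM. The highest Ikzf1 library lay well below the lowest control, and the libraries held 1829 to 4429 reads of the gene. On the log2 scale the difference was −0.87 (standard error 0.05, edgeR adjusted p 8.4e-13), and 8.62% of all tested genes had a lower value.

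Casz1 has short and long protein forms, so its transcripts were followed separately. Of all 46834 transcripts tested, 14.3% were called and 7.52% were called lower. The longest, ENSMUST00000122222.7 (7926 nt), took 78.6% ± 0.241 of the control reads of Casz1 and 77.6% ± 2.63 of the others (SD, n = 4 a group) and fell by 0.88 on the log2 scale. The next, ENSMUST00000094464.9 (4349 nt), took 11.2% ± 0.453 and 11.95% ± 1.59 and fell by 0.76. A transcript of 3014 nt (ENSMUST00000139806.1) fell by 0.64, a call that did not hold in 9 of 10 alternative analyses. The other tested transcripts, of 829 nt and 1881 nt, were not called, at −0.71 (standard error 0.23) and −1.30 (standard error 0.40). The 1881-nt transcript had the lowest value and the largest error of the 5. No share of a Casz1 transcript passed the test of usage, in which 0.167% of 41416 transcripts were called.

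Promoter sequence was read for the members with an entry in RefSeq (GRCm38.p6), which held 10 start sites of 6 of the 8 genes. The sequences before the starts of Casz1 and Foxn4, which fell by much the same amount, are shown with each match to GGGAA, the core of the sequence known to be bound by Ikaros, or to its complement, in capitals. The windows are chr4:148804142-148804391 on the plus strand for Casz1 and chr5:114273808-114274011 on the minus strand for Foxn4, written 5′ to 3′.
Casz1: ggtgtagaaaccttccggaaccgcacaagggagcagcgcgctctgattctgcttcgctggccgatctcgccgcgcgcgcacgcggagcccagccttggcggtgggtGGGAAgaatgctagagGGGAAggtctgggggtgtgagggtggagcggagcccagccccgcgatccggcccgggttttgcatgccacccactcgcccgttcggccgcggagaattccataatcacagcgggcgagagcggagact
Foxn4: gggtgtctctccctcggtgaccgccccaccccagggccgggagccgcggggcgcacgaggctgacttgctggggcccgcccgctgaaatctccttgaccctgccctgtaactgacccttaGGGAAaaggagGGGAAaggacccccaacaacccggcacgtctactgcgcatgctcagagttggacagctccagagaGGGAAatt
The Casz1 stretch holds 2 matches, which start 144 and 128 bases before the RefSeq start, and the Foxn4 stretch holds 3, which start 130, 119 and 54 bases before it. Both strands were searched, and overlapping matches were counted. In the 300-base windows (250 bases before and 50 after a start), 62.7% of the 32851 promoters hold GGGAA at least once and 8.83% hold it 3 times or more. The longer form TGGGAA is in 25.6% of promoters, and once each in this Casz1 window, the other Casz1 window and a Pou2f1 window. The Foxn4 window holds 0. Of the other windows, that of Ikzf5 holds 1 match, that of Pou2f2 holds 2, those of the 3 Pou2f1 starts hold 0, 0 and 1, those of the Ikzf1 starts 0 and 2, and that of the other Casz1 start 1. The octamer ATGCAAAT, known as the site of Pou2f proteins, is in 1.74% of promoters and in 0 of the 10 windows of these genes. A match is a description of the letters only.

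Foxn4 (ENSMUSG00000042002, chromosome 5, 114254164 to 114273807, minus strand) encodes a forkhead factor that gives progenitors the competence to make amacrine and horizontal cells. It stood at 25.8, 25.6, 21.7 and 28.1 CPM in the controls and at 13.5, 16.3, 12.4 and 14.7 CPM in the Ikzf1 libraries. The groups did not overlap. Foxn4 fell by 0.83 on the log2 scale (standard error 0.09, edgeR adjusted p 1.4e-08). A single transcript of 3016 nt carried 97.2% ± 1.35 of the control reads and 97.8% ± 0.962 of the others and fell by 0.82.

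Pou2f1 (ENSMUSG00000026565, chromosome 1, 165865154 to 166002678, minus strand) encodes Oct1, a widely expressed octamer-binding protein. It stood at 115.1, 119.7, 121.8 and 110.8 CPM in the controls and at 108.1, 102.6, 107.3 and 116.2 CPM in the Ikzf1 libraries. Ikzf1 replicate 4 lay above control replicates 1 and 4, so the groups overlapped. On the log2 scale the difference was −0.10 (standard error 0.05, edgeR adjusted p 0.0608), close to the threshold. It passed without control replicate 4 (−0.13), without Ikzf1 replicate 4 (−0.14), with an offset for transcript length (−0.19) and with total-count scaling (−0.32). In the authors' deposited table it was −0.19 with an adjusted p of 0.0296. Pou2f1 overlaps Cd247 on the opposite strand.

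Pou2f2 (ENSMUSG00000008496, chromosome 7, 25087344 to 25179726, minus strand) encodes Oct2, best known from B cells. It was the lowest of the list, with 117 to 200 reads per library. Its level was 5.93, 7.53, 7.25 and 6.26 CPM in the controls and 5.79, 5.42, 4.66 and 5.74 CPM in the Ikzf1 libraries. The highest Ikzf1 library and the lowest control differed by little, and the groups did not overlap. Pou2f2 fell by 0.31 on the log2 scale (standard error 0.12, edgeR adjusted p 0.0323). The call was lost without control replicate 2 (−0.26), control replicate 3 (−0.27), Ikzf1 replicate 2 (−0.31) or Ikzf1 replicate 3 (−0.25). With an offset for transcript length it was −0.51 and with total-count scaling −0.53, and it passed under each. In the authors' deposited table it was −0.46 with a DESeq2 adjusted p of 0.0366.

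**Figure D3:**
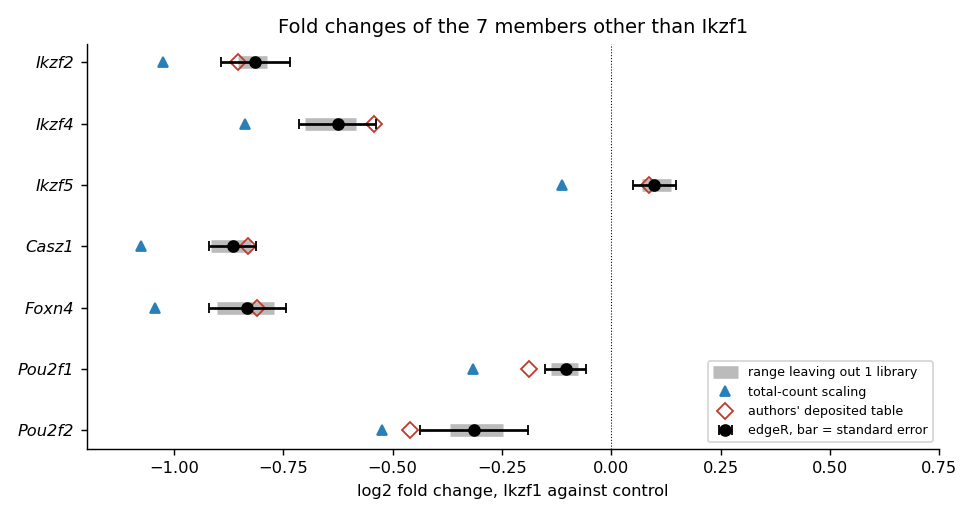
Log2 fold change of the 7 factors other than Ikzf1, Ikzf1 against control libraries. Points with bars are the edgeR value and its standard error, grey bands the range when each library is left out in turn, triangles total-count scaling and diamonds the authors' deposited table; all 7 but Ikzf5 lie below 0 under all of them, Pou2f1 and Pou2f2 closest to it, and Ikzf5 changes side with total-count scaling.

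The authors' deposited table, made with DESeq2, gave the same direction for all 8 genes. It listed 11.11 for Ikzf1, −0.83 for Casz1, −0.85 for Ikzf2, −0.81 for Foxn4, −0.54 for Ikzf4, −0.46 for Pou2f2 and 0.09 for Ikzf5. It called 7 of the 8, where 41.8% of its genes with an adjusted p were called. It rests on the same libraries and is no independent check.

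Levels between genes were compared per length, as TPM (the share of a library's transcripts, corrected for transcript length) in the controls. Ikzf1 stood at 87.9 ± 11.1 TPM, Casz1 at 57.8 ± 2.87, Ikzf5 at 51.5 ± 4.78 and Pou2f1 at 22.8 ± 2.50 (SD, n = 4). Below them came Foxn4 at 18.7 ± 2.77, Ikzf4 at 8.31 ± 0.715, Ikzf2 at 5.52 ± 0.656 and Pou2f2 at 3.63 ± 0.422 TPM. The control ranges of the neighbours Casz1 and Ikzf5, and of Pou2f1 and Foxn4, overlapped, and those of the other neighbours did not. The place of Ikzf1 in this order carries the doubt about its control reads given above. In the Ikzf1 libraries Ikzf5 stood above Casz1, and the other genes kept their places.

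Across the 8 genes, 71 annotated transcripts were found, 61 had reads and 26 were tested. Of these, 5 were called lower (3 of Casz1, 1 of Ikzf2 and 1 of Foxn4) and 4 higher, all of the misexpressed Ikzf1. Among all 46834 tested transcripts, 14.3% were called and 7.52% were called lower. Of 25 transcripts tested for usage by edgeR's diffSpliceDGE, 0 were called and 0 had an unadjusted p under 0.05, with 0.0814 the smallest. Over all transcripts 0.167% were called for usage, so 0 of 25 is not a result about these genes. The longest Ikzf2 transcript (9278 nt) held 90.9% ± 1.84 of the control reads and 92.3% ± 1.05 of the others, and fell by 0.79. The main Ikzf5 transcript (4430 nt) took 84.6% ± 1.73 and 84.7% ± 1.91.

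The genes with the profile closest to each factor were named by the root mean square difference of mean-centred log2 CPM over the 8 libraries, among 11437 genes. For Casz1 these were Bin1 (0.0383), a membrane-curving protein, and Gpaa1 (0.0419), a subunit of the enzyme that attaches GPI anchors. For Foxn4 they were Osbpl5 (0.0760) and Camkk1 (0.0846), a lipid transfer protein and a calcium-dependent kinase. For Ikzf2 they were Dzip1 (0.0425) and Klhl28 (0.0425), and for Ikzf4 Kdm6b (0.0409), a histone H3K27 demethylase, and Arhgef2 (0.0499). The others were Cand1 (0.0309) and Depdc5 (0.0315) for Ikzf5, Zkscan1 (0.0191) and Ints2 (0.0215) for Pou2f1, and 4930503L19Rik (0.0672) and Camk1 (0.0751) for Pou2f2. For a given factor, a smaller value means a closer profile. The measure takes in both the group difference and the spread between libraries, so values of different factors are not comparable. Bin1 and Gpaa1, for example, fell by 0.91 and 0.80.

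Genes around these factors were then counted from 6 lists, against 29.5% higher and 29.9% lower among all genes. Of 21 late progenitor genes tested, 1 was higher and 15 lower, with a median log2 fold change of −0.36. Sox9, needed for Müller glia, went from 131.0 ± 9.09 to 33.8 ± 2.56 CPM and fell by 1.95 on the log2 scale. Id3, an inhibitor of bHLH factors, fell by 1.66, and Hes1, a Notch target that keeps progenitors undifferentiated, fell by 1.16. Slc1a3, the glial glutamate transporter, rose by 0.31, a call that was lost with total-count scaling.

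Early progenitor genes did not move one way. Of 19 tested, 4 were higher and 8 lower, with a median of −0.03. Lin28b, an RNA-binding protein that blocks let-7, rose by 1.46 from 2.37 ± 0.301 to 6.46 ± 0.551 CPM, and the nuclear receptors Nr2f1 and Nr2f2 rose by 0.62 and 0.40. Hmga2, a chromatin protein of young progenitors, fell by 1.61 from 458 ± 14.7 to 151 ± 15.5 CPM. Atoh7, needed for ganglion cells, fell by 1.15, and Igf2bp1, an mRNA-binding protein, fell by 1.07.

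The let-7 and Lin28 pathway, which times progenitor states in worms and vertebrates, had 6 higher and 6 lower of 18 tested, with a median of 0.01. Lin28b (1.46), Hmga2 (−1.61) and Igf2bp1 (−1.07), given above as early progenitor genes, also belong to this list and had its largest changes. Arid3a rose by 0.45 and Ago1, an Argonaute protein, by 0.38, while Drosha, the enzyme that cuts primary miRNAs, fell by 0.96. With total-count scaling, which shifts all genes down, the same list had 3 higher and 12 lower.

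Of 21 Polycomb genes, whose products include partners of Casz1, 8 were higher and 7 lower, with a median of 0.07. Phf19 rose by 1.06, Suz12 by 0.40 and Pcgf1 by 0.34, while Pcgf2 fell by 1.21 and Eed by 0.48. Suz12 and Eed belong to the same core complex and moved in opposite directions. The split was 2 higher and 12 lower with total-count scaling, under which the call on Pcgf1 was lost.

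Of 14 genes known to act with or after Foxn4, 3 were higher and 6 lower, with a median of −0.06. The Notch ligands Dll4 and Dll1 rose by 0.82 and 0.42, and Isl1, a factor of several retinal neuron types, by 0.39 (lost with total-count scaling). Neurod4, which acts in amacrine and bipolar cell genesis, fell by 0.69. Atoh7 also belongs to this list. Ptf1a, the amacrine and horizontal cell factor downstream of Foxn4, stood at 3.96 ± 0.510 and 3.84 ± 0.693 CPM and was not called; it was named after its values were seen.

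The genes of the cone and rod decision, in which Pou2f proteins act, were mostly lower, at 1 higher and 8 lower of 11 tested, with a median of −0.57. Prdm1, which favours rods over bipolar cells, fell by 1.23, and Crx, a photoreceptor factor, by 1.05. Sall3, which acts in cone and horizontal cells, rose by 1.67 from 4.03 ± 0.598 to 12.8 ± 1.46 CPM. All named genes here passed the edgeR adjusted p of 0.05 unless said otherwise, with 4 libraries in each group.

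**Figure D4:**
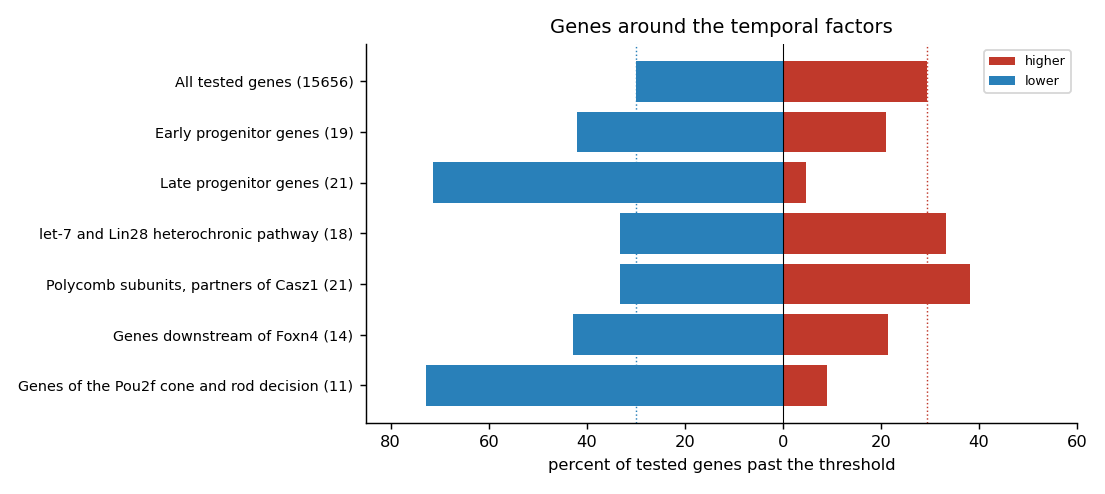
Percent of the tested genes of each list that were higher (right) or lower (left) in the Ikzf1 libraries at an edgeR adjusted p of 0.05, with the number tested in brackets; dotted lines mark all tested genes (29.5% and 29.9%). Late progenitor genes (15 of 21) and genes of the cone and rod decision (8 of 11) have the largest lower shares of the 6 lists.

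Some markers of cell types also differed between the groups, and their part in the changes above was not tested. Their counts are to be read against 29.5% higher and 29.9% lower among all genes. Of the 15 progenitor markers, 4 were higher and 8 lower, with a median of −0.25, and their summed level was 3408 to 3607 CPM in the controls and 2734 to 2792 CPM in the Ikzf1 libraries. Nes fell by 1.72, the proliferation marker Ccnd1 by 0.94 and Notch1 by 0.81. Pax6 rose by 0.32 and the proliferation markers Top2a, Mki67 and Pcna by 0.28, 0.13 and 0.13. The last 2 values are smaller in size than the median shift of −0.21 under total-count scaling. Lhx2, Six6 and Cdk1 were not called. Of 10 postmitotic neuron markers tested, 6 were higher and 4 lower, with sums of 741 to 783 and 829 to 853 CPM. The higher sum rests mainly on Syt1 (mean 234 CPM in the controls and 393 CPM in the Ikzf1 libraries) and is not a rise of the whole list. Tubb3 (133 and 169 CPM) and Sncg (2.64 and 21.3 CPM) were among the others that rose. The 4 lower markers were Nefl (117 and 18.8 CPM), Stmn2 (127 and 80.1 CPM), Snap25 (114 and 98.6 CPM) and Gad1 (11.2 and 3.73 CPM). Endothelial markers, with 3 of 7 lower, summed to 511 to 581 and 229 to 273 CPM, a sum made up almost wholly of Kdr (435 ± 32.8 and 215 ± 18.2 CPM) and Flt1 (101 ± 5.09 and 19.0 ± 1.70 CPM). Pecam1 (3.04 and 2.89 CPM), Esam (2.40 and 2.68 CPM), Egfl7 (3.83 and 4.14 CPM) and Cldn5 (0.618 and 0.432 CPM) were not called. Microglia markers (1 of 4 lower) summed to 2.97 to 4.44 and 1.91 to 4.24 CPM, and lymphocyte markers (2 of 5 lower, Cd3e at 0) to 8.89 to 10.6 and 4.35 to 5.95 CPM. Pigment epithelium markers (2 of 5 lower, Rpe65 at 0) summed to 13.1 to 13.9 and 7.06 to 8.91 CPM, and astrocyte markers (2 of 4 lower) to 5.71 to 7.07 and 5.07 to 6.01 CPM. No marker of these last 5 lists was called higher.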

How the data were processed

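Levels came from the 8 RNA-seq libraries. Per the file headers, the authors' transcript files hold estimated counts of read pairs and TPM. The submitters' processing notes name Salmon, DESeq2, Bowtie2, MACS2, deepTools, mm9 and mm10; versions and options are not given in the sources used here. The authors' deposited comparison table holds, per the file headers, a mean signal (normalised counts), log2 fold change and its error, a Wald score and p-values. The files pair no transcripts with genes, so each gene was given the run of up to 60 neighbouring transcripts whose counts give its deposited mean (relative tolerance 3e-09), a departure from the plan. This joined 16810 of 16815 genes whose mean was 5 or more, and all 8 members. In the 11908 genes of mean 100 or more, fold changes of joined counts differed from the authors' by a median of 0.00322 (log2, absolute). These counts were scaled with library factors fitted to the deposited means and corrected for length, so the value checks the join only. The edgeR fold changes can differ more, as for Pou2f2 at −0.31 against −0.46.

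Estimated counts were summed to genes, rounded, filtered with filterByExpr, scaled by TMM and tested with edgeR 4.0.16 in R 4.3.3 (robust two-sided quasi-likelihood F test, no covariate). P-values were adjusted by Benjamini-Hochberg across every gene in the fit, with calls at 0.05. Standard errors are |log2 fold change| over the root of F. Transcripts were fitted in the same way over the whole table, and usage with diffSpliceDGE. The scripts were tested on simulated data. Depth was 21.4 to 30.5 M estimated reads per library, and p-values measure the spread between these libraries.

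The members and the 13 gene lists (169 symbols) were chosen with earlier results of these data known. Named are all members, up to 3 called genes per direction and pathway list with the largest change and a mean of at least 1 CPM in a group, and the 2 genes with the closest profile (prior count 2, mean of at least 5 CPM); a few genes that the rule picks are not reported here. The summed shares of near-identical transcripts (within 2% of the longest) were chosen after their values were seen. Alternatives were DESeq2 1.42.0, total-count scaling, no filter, a length offset, a replicate block and each library left out. Another left the Ikzf1 gene out of the counts and kept TMM. The CUT&RUN peaks were not used here.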

Additional observations from a re-analysis of the deposited data

Results flagged for a closer look

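In 72 groups of 4 libraries (the CPM of the 8 temporal factors and of 28 genes of the lists, in controls and in Ikzf1 libraries), 1 library stood far from the other 3 in 6 groups; chance alone gives about 1 in 20 groups. Ikzf5 was at 86.2 CPM in Ikzf1 replicate 2, where the nearest of the others was at 93.3 CPM, and without that library Ikzf5 passed the test. Atoh7 was at 33.5 CPM in control replicate 1 (nearest 30.9). Ago1 was at 222 CPM in Ikzf1 replicate 4 (nearest 195), and Pcgf2 at 15.0 CPM in Ikzf1 replicate 3 (nearest 18.8). Prdm1 was at 218 CPM in control replicate 1 (nearest 186) and at 92.0 CPM in Ikzf1 replicate 4 (nearest 79.5).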

How the results depend on the processing

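Casz1, Ikzf2, Foxn4 and Ikzf4 kept their direction and their call in all 14 alternatives. Total-count scaling gave 2376 genes higher and 7772 lower, −0.11 for Ikzf5 (a turned direction, edgeR adjusted p 0.0420) and −0.32 for Pou2f1 (2.9e-06). Under it the lists held 0 late progenitor genes higher, 3 higher and 12 lower let-7 and Lin28 genes, and 2 higher and 12 lower Polycomb genes. With the Ikzf1 gene left out of the counts and TMM kept, 4638 genes were higher and 4667 lower. Ikzf5 was then at 0.10 and Pou2f1 at −0.10, and neither was called. The length offset gave −0.19 for Pou2f1, −0.51 for Pou2f2 and the fewest calls, 7999, and DESeq2 made 9181. With each library left out in turn, Ikzf5 ranged from 0.070 to 0.14, Pou2f1 from −0.14 to −0.076 and Pou2f2 from −0.37 to −0.25. Without the filter, 1 transcript of these genes was called for usage, the Pou2f1 transcript of 13050 nt, whose reads are all in control replicate 4. Over all transcripts, calls for usage numbered 69, then 329 without the filter and 146 to 183 with a library left out. By CPM instead of TPM, Casz1 ranked 1, Pou2f1 2, Ikzf1 4, Ikzf2 6 and Ikzf4 7. The causes were not tested. Over 28 genes picked from the lists, 389 values kept their call and 3 lost it. Pou2f2 had the fewest reads of the 8 genes, 117 to 200 per library.

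Replicate numbers are shared by the groups as names only: deviations of same-numbered libraries had correlations of −0.05 to 0.01. With the replicate number as a block, 9010 genes and 3655 transcripts (6677 without the block) were called. Pou2f2 was −0.31 with an edgeR adjusted p of 0.0515 there.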

Other observations

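Among transcripts of nearly the same length, the estimated reads of a library often went to a single one. For Pou2f2, the share on the transcript of 7047 nt was 65.5% ± 44.0 in control and 45.0% ± 52.0 in Ikzf1 libraries (SD, n = 4 a group), and that on the transcript of 7095 nt was 20.98% ± 42.0 and 41.9% ± 48.4. Their sum was steady, at 86.5% ± 5.22 and 86.8% ± 4.99. For Pou2f1, the transcript of 13050 nt had reads in control replicate 4 alone, while its sum with the transcript of 13022 nt was 96.3% ± 0.825 and 97.3% ± 0.419. For Ikzf4, the share of the transcript of 5251 nt was 11.7% ± 15.8 and 8.25% ± 16.5, and the sum of the transcripts of 5150, 5173 and 5251 nt was 86.2% ± 7.67 and 82.3% ± 0.640.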
